A study of Mus musculus with 12 samples.

Results

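Genes for 39 lysosomal proteins were followed across the 12 libraries of a sequencing study of mIMCD3 cells, a mouse line that stems from kidney inner medullary collecting duct. They are 24 enzymes, precursors and membrane proteins of the lysosome and 15 subunits of the vacuolar proton pump (V-ATPase), picked by gene symbol among the 27179 genes of the deposited table. All 39 were found and all 39 passed the filter on low values, which kept 13939 genes. The 24 lysosomal genes are 7 proteases, 8 glycosidases, 2 lipid enzymes, 2 precursor proteins and 5 membrane proteins, and the 15 pump genes are 5 subunits of the V0 sector, 8 of the V1 sector and 2 accessory subunits.

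Lysosomes break down proteins, glycans, lipids and nucleic acids with hydrolases that work best in an acid lumen. The V-ATPase supplies the acid: its cytosolic V1 sector hydrolyses ATP and turns a rotor that drives protons through the membrane-bound V0 sector. Most soluble hydrolases are made as precursors, marked with mannose 6-phosphate in the Golgi and carried to the lysosome by receptors for that tag. Many of the genes carry the E-box CACGTG near their start, which transcription factors of the MiT/TFE family, TFEB among them, can bind.

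The cells formed 4 groups of 3 libraries. KO-1 CB is an Actr3 knockout line starved in the presence of the dynein inhibitor ciliobrevin D at 0.5 µM. The double knockout dKO lacks Actr3 and Ift88, KO-1 is the Actr3 knockout line with no inhibitor, and Ctrl is a wild-type control line; for cells without the inhibitor the protocol names a solvent control. All groups shared 48 h of growth to confluence in medium with 10% FCS and 24 h of serum starvation. The labels give 5 mM HEPES for every sample. Actr3 encodes a core subunit of the Arp2/3 complex, which builds branched actin networks, and Ift88 a protein that carries cargo inside the primary cilium. By the titles each genotype was a single line, so a line and its genotype cannot be told apart, and the labels do not say how dKO was derived from or relates to KO-1. Nor do they say whether replicates were grown as separate cultures, so the p-values reflect the scatter among these libraries, some or all of which could be technical. The titles give 3 replicates of control line 1, but 1 of the 3 control columns in the table is headed as replicate 1 of a control line 2. Ctrl may therefore hold libraries of 2 control lines, and that column is the last of the values given for Ctrl in each sentence. Without it, of the 24 lysosomal genes 14 rose and 5 fell and of the 15 pump genes 3 rose and 7 fell in KO-1 against Ctrl, against 13 and 5 and 4 and 7 with it. Over all tested genes, 65.2% were called in either direction without it and 69.8% with it, by the threshold given below. In bulk RNA, fewer cells of a kind and less RNA per cell cannot be told apart.

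Values are normalized counts, that is, reads per gene divided by 1 scaling factor for each library. Differences are log2 fold changes of value + 1 with their standard error (SE), from limma fitted to all 12 libraries, and genes with an adjusted p (Benjamini-Hochberg) under 0.05 were called. The libraries held 28902562 to 38077987 reads. Actr3 averaged 1573 ± 180.2 in KO-1 CB, 871 ± 38.6 in dKO, 1218 ± 111 in KO-1 and 8336 ± 293 in Ctrl (SD, n = 3 each), and whole-gene counts of Ift88, at 438 ± 4.29 in KO-1 CB, 604 ± 29.8 in dKO, 617 ± 34.2 in KO-1 and 457 ± 14.9 in Ctrl, do not check the Ift88 edit. Summed values of 20 collecting duct and kidney epithelial markers were 93587 to 96963 in KO-1 CB, 83679 to 91121 in dKO, 93095 to 100976 in KO-1 and 120822 to 129166 in Ctrl. Of the 15 tested, 3 rose and 8 fell in KO-1 against Ctrl (median -0.15), 6 and 6 in dKO against KO-1, 4 and 7 in KO-1 CB against KO-1, 3 and 8 in dKO against Ctrl, and 3 and 9 in KO-1 CB against Ctrl (median -0.70). Over all tested genes, in the same order of comparisons, 34.4%, 32.5%, 32.7%, 32.0% and 33.0% were called higher. Called lower were 35.4%, 33.2%, 32.9%, 35.1% and 32.0%. The part of these markers in the results was not tested. Among these markers, the kidney cadherin Cdh16 averaged 24985 in KO-1 CB, 17788 in dKO, 35475 in KO-1 and 18297 in Ctrl, while the collecting duct water channel Aqp2 did not exceed 1.86 in any library. Macrophages are rich in lysosomes, and the summed values of 15 macrophage markers ran from 1970.3 to 2360 in KO-1 CB, 4370.4 to 4416 in dKO, 5164 to 5563 in KO-1 and 3787 to 4267 in Ctrl. Csf1r and Cd14 made up most of these sums, with Csf1r at 1012 ± 183 in KO-1 CB, 3182 ± 75.9 in dKO, 4318 ± 198 in KO-1 and 3202 ± 242 in Ctrl. Of the 15 macrophage markers, 3 in KO-1 CB and 4 in each other group were at 10 or more in every library of the group. Under 10 in every library of the group were 10 markers in KO-1 CB and 11 in each other group. Among these low markers, Adgre1, Lyz2 and Tyrobp did not exceed 1.23 in any library, and C1qa, C1qb, C1qc and Cx3cr1 were at 0 in all 12. Summed values of 16 intercalated cell markers, from a cell type with abundant V-ATPase, were 384 to 568 in KO-1 CB, 712 to 833 in dKO, 652 to 730.1 in KO-1 and 1027 to 1247 in Ctrl, mostly Car2 and Atp6v0a4, with Foxi1 at no more than 0.89 and Slc4a1 at no more than 4.81. Summed values of 12 fibroblast and endothelial markers lay between 115 and 193 in every library.

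On a scale that allows genes to be compared, normalized counts per kilobase of exon, the lysosomal genes spanned a wide range of levels in Ctrl. Psap, the precursor of the saposins, was highest at 17225 ± 686 (SD, n = 3), and it was the highest of the 39 genes in each of the 4 groups. Lamp1, a glycoprotein that coats the lysosomal membrane, followed at 11617 ± 865, and Ctsd, an aspartic protease, at 11348 ± 923, and these neighbours did not differ beyond their spread. The lowest level in Ctrl was that of Gusb, beta-glucuronidase, at 178 ± 6.08. The pump subunits were spread from rank 9 to rank 38 of the order, between Atp6v1f at 2596 ± 93.6 and Atp6v1h at 196 ± 10.2. Gaa stood at 2151 ± 140.3 in KO-1 CB, 1371 ± 68.3 in dKO, 3620.5 ± 259 in KO-1 and 1403 ± 60.6 in Ctrl. Among the 39 genes that was rank 11 in KO-1 CB, 13 in dKO, 5 in KO-1 and 13 in Ctrl.

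The first comparison set the Actr3 knockout line against the control line. In KO-1 most glycosidases, led by Hexa and Gaa, and both precursor proteins, Psap and Grn, were higher, while Gla, several cathepsins and the tetraspanin Cd63 were lower and the V1 sector of the pump was lower in part. Of the 24 lysosomal genes, 13 rose and 5 fell in KO-1 (median log2 fold change 0.28), where 34.4% of all tested genes were called higher and 35.4% lower. Of the 15 pump genes, 4 rose and 7 fell (median -0.07). Since 69.8% of all tested genes were called in this comparison, the number of members called in either direction is near the background, and the direction and size of each call carry the description. Called at a change of at least 1.5-fold in KO-1 against Ctrl were 10 lysosomal and 1 pump genes higher and 4 and 3 lower, where 15.1% and 15.3% of all tested genes were. The KO-1 libraries all lay above the Ctrl libraries for 14 lysosomal and 3 pump genes and below them for 5 and 7, as they did for 36.0% and 37.2% of all tested genes. The median over all tested genes was 0.00. By class, 6 of 8 glycosidases rose and 1 fell (median 0.67), 2 of 7 proteases rose and 3 fell (median -0.17), and of 8 V1 subunits none rose and 5 fell (median -0.22).

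The second comparison set the double knockout against the Actr3 knockout. In dKO most lysosomal enzymes were lower, led by Gaa and Man2b1, and 5 of the 8 V1 subunits were higher. Of the 24 lysosomal genes, 3 rose and 16 fell in dKO (median -0.29), against 32.5% of all tested genes called higher and 33.2% lower. Of the 15 pump genes, 7 rose and 4 fell (median 0.12), with 65.7% of all tested genes called in either direction. No glycosidase rose and 6 of 8 fell (median -0.56), and 1 of 7 proteases rose and 5 fell (median -0.38). Called at a change of at least 1.5-fold in dKO against KO-1 were 1 lysosomal and 3 pump genes higher and 6 and 2 lower, where 10.6% and 14.9% of all tested genes were. The dKO libraries all lay above the KO-1 libraries for 3 lysosomal and 8 pump genes and below them for 18 and 4, as they did for 35.5% and 35.7% of all tested genes.

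The third comparison set the knockout line with ciliobrevin D against the same line without it. With the inhibitor most pump subunits were higher, all 8 V1 subunits among them, and Gla and Ctsl showed the largest increases of the 39 genes, while most glycosidases were lower. Of the 15 pump genes, 13 rose and 0 fell in KO-1 CB (median 0.38), against 32.7% of all tested genes called higher and 32.9% lower. The median over all tested genes was -0.02. Of the 24 lysosomal genes, 7 rose and 13 fell (median -0.16), with 65.5% of all tested genes called in either direction. Among the 8 glycosidases 1 rose and 5 fell (median -0.62), and among the 7 proteases 4 rose and 2 fell (median 0.31). Called at a change of at least 1.5-fold in KO-1 CB against KO-1 were 3 lysosomal and 5 pump genes higher and 6 and 0 lower, where 13.1% and 11.3% of all tested genes were. The KO-1 CB libraries all lay above the KO-1 libraries for 9 lysosomal and 13 pump genes and below them for 12 and 0, as they did for 34.3% and 33.9% of all tested genes. Of the 13 pump genes called higher, Atp6v1a, Atp6v0d1 and Atp6ap2 were not called with quantile normalization or total count scaling. Atp6ap1 was called lower with both of these scalings. These 3 comparisons share the KO-1 libraries, so a value that is high in KO-1 enters each of them, and the values of each are set side by side below without a test between them.

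**Figure D1:**
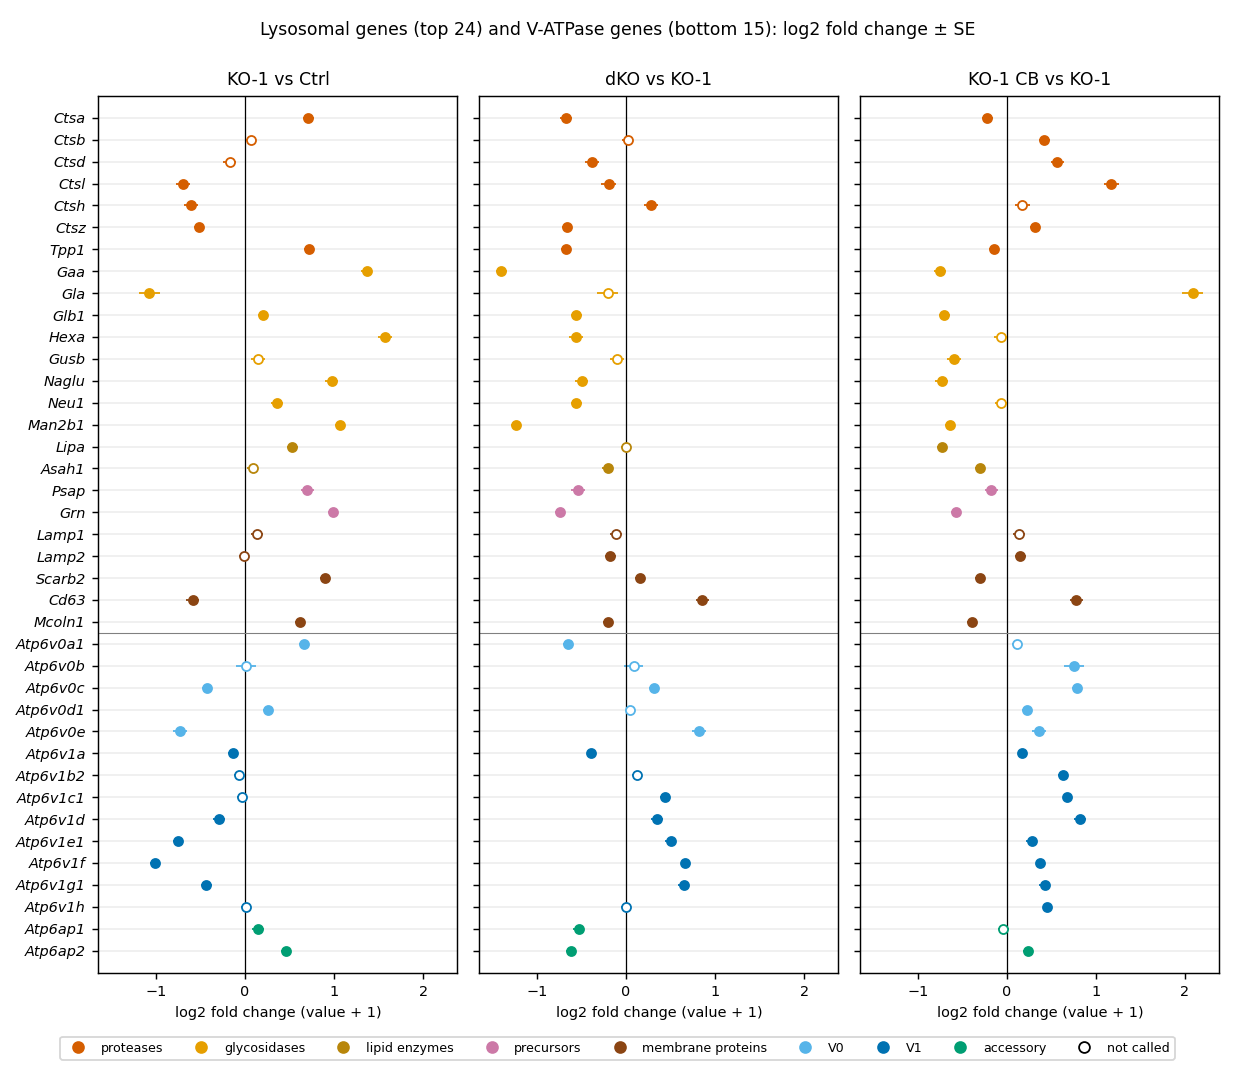
Log2 fold change of each of the 39 genes (rows) in KO-1 against Ctrl, dKO against KO-1 and KO-1 CB against KO-1 (panels), with bars for the SE, filled points for called genes and colours for the classes of proteins. Gaa lies at 1.37, -1.40 and -0.75 in the 3 panels, Gla at -1.08, -0.20 and 2.08, and the 8 V1 subunits all lie right of 0 in the third panel.

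The glycosidases remove sugars from glycogen, glycoproteins and glycolipids. Of the 39 genes, they held the largest increase and the largest decrease in KO-1 against Ctrl. In dKO against KO-1 they held the largest decrease, while the largest increases were those of Cd63 and Atp6v0e. In KO-1 CB against KO-1 they held the largest increase, and the largest decrease, that of Gaa, was close to that of Lipa. Gaa, acid alpha-glucosidase, the enzyme that digests glycogen in the lysosome (chromosome 11, 119267963 to 119285458 in GRCm38.p6), had normalized counts of 10983, 9644 and 10235 in KO-1 CB, 6199, 6838 and 6634 in dKO, 16442, 16775 and 18734 in KO-1, and 6469.6, 7033 and 6629.8 in Ctrl. Every KO-1 library lay above every other library, the KO-1 CB libraries came next, and dKO and Ctrl overlapped. Gaa had a log2 fold change of 1.37 ± 0.06 in KO-1 against Ctrl (adjusted p = 8.3e-14). Relative to KO-1, Gaa had log2 fold changes of -1.40 ± 0.06 in dKO (adjusted p = 5.7e-14) and -0.75 ± 0.06 in KO-1 CB (adjusted p = 1.07e-09). Man2b1, the lysosomal alpha-mannosidase that trims glycoprotein glycans (chromosome 8, 85082730 to 85098739), had 5020.4, 5082 and 5096 in KO-1 CB, 3191, 3418 and 3467 in dKO, 7377, 7875 and 8424 in KO-1, and 3923, 3759 and 3652 in Ctrl. The order of the groups was that of Gaa, with dKO below Ctrl and no overlap between any 2 groups. In KO-1, Man2b1 had a log2 fold change of 1.06 ± 0.05 against Ctrl (adjusted p = 5.02e-13). Relative to KO-1, Man2b1 had log2 fold changes of -1.23 ± 0.05 in dKO (adjusted p = 5e-14) and -0.64 ± 0.05 in KO-1 CB (adjusted p = 1.62e-09).

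Hexa, the alpha subunit of beta-hexosaminidase, which degrades GM2 ganglioside (chromosome 9, 59539540 to 59565109), had 3385, 3401 and 3822 in KO-1 CB, 2261, 2684 and 2566 in dKO, 3678, 3674 and 3719 in KO-1, and 1054, 1329 and 1366 in Ctrl and the largest increase of the 39 genes in KO-1 over Ctrl. KO-1 and KO-1 CB overlapped, dKO lay below both, and Ctrl was lowest with no overlap. Hexa had a log2 fold change of 1.57 ± 0.08 in KO-1 against Ctrl (adjusted p = 4.95e-13). Relative to KO-1, Hexa had log2 fold changes of -0.56 ± 0.08 in dKO (adjusted p = 2.63e-06) and -0.06 ± 0.08 in KO-1 CB (adjusted p = 0.496, not called). Scaled by total counts or by quantiles, the KO-1 CB difference was called lower, at -0.20 (adjusted p = 0.0319) and -0.23 (adjusted p = 0.0172). Naglu, which acts on heparan sulfate, had 1812, 1626 and 1653 in KO-1 CB, 1748, 2212 and 2048 in dKO, 2742, 2859 and 2843 in KO-1, and 1346, 1555 and 1404 in Ctrl, so that KO-1 was highest, KO-1 CB and dKO overlapped, and Ctrl was lowest. In KO-1, Naglu had a log2 fold change of 0.97 ± 0.07 against Ctrl (adjusted p = 1.81e-10). Relative to KO-1, Naglu had log2 fold changes of -0.50 ± 0.07 in dKO (adjusted p = 4.11e-06) and -0.73 ± 0.07 in KO-1 CB (adjusted p = 1.85e-08).

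Gla, alpha-galactosidase A, which cleaves globotriaosylceramide (chromosome X, 134588169 to 134601005), ran the other way. It had 1199.8, 1557 and 1923 in KO-1 CB, 319, 322 and 298 in dKO, 328, 358 and 399 in KO-1, and 681, 799 and 812 in Ctrl. The KO-1 CB libraries were highest and the most spread, Ctrl came next, and KO-1 and dKO were lowest without overlapping each other. Gla had a log2 fold change of -1.08 ± 0.12 in KO-1 against Ctrl (adjusted p = 6.21e-08). Relative to KO-1, Gla had log2 fold changes of -0.20 ± 0.12 in dKO (adjusted p = 0.136, not called) and 2.08 ± 0.12 in KO-1 CB (adjusted p = 2.96e-12). The ratio of means was 4.31 in KO-1 CB over KO-1. Leaving out any library kept the Gla call in KO-1 CB, with log2 fold changes of 1.92 to 2.26.

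The remaining glycosidases Neu1, Glb1 and Gusb had smaller differences in KO-1 against Ctrl. Neu1, a sialidase that works in a complex with Ctsa and Glb1, averaged 4602 ± 225 in KO-1 CB, 3285 ± 288 in dKO, 4817 ± 54.6 in KO-1 and 3767 ± 311 in Ctrl (SD, n = 3 each). In KO-1, Neu1 had a log2 fold change of 0.36 ± 0.06 against Ctrl (adjusted p = 4.64e-05). Relative to KO-1, Neu1 had log2 fold changes of -0.56 ± 0.06 in dKO (adjusted p = 1.52e-07) and -0.07 ± 0.06 in KO-1 CB (adjusted p = 0.373, not called). The KO-1 CB difference was not called here but was called lower with total count scaling, at -0.20 (adjusted p = 0.00921). Glb1, the beta-galactosidase of that complex, averaged 807 ± 33.8 in KO-1 CB, 892 ± 32.8 in dKO, 1312 ± 37.5 in KO-1 and 1142 ± 30.9 in Ctrl. Glb1 had a log2 fold change of 0.20 ± 0.06 in KO-1 against Ctrl (adjusted p = 0.00479). Relative to KO-1, Glb1 had log2 fold changes of -0.56 ± 0.06 in dKO (adjusted p = 3.64e-08) and -0.70 ± 0.06 in KO-1 CB (adjusted p = 1.26e-09). The exons of Glb1 share 165 of 3008 bases with Tmppe, whose span overlaps that of Glb1, and reads of these 2 genes may have been split in counting, so the Glb1 values are uncertain. Gusb averaged 595 ± 64.4 in KO-1 CB, 838 ± 33.5 in dKO, 900.2 ± 83.2 in KO-1 and 810.1 ± 27.7 in Ctrl. In KO-1, Gusb had a log2 fold change of 0.15 ± 0.08 against Ctrl (adjusted p = 0.102, not called). Relative to KO-1, Gusb had log2 fold changes of -0.10 ± 0.08 in dKO (adjusted p = 0.276, not called) and -0.60 ± 0.08 in KO-1 CB (adjusted p = 1.12e-06). The KO-1 difference of Gusb was called without KO-1 replicate 1, at 0.22 (adjusted p = 0.025). Gusb lies on chromosome 5, where the median gene differed by -0.24 in KO-1 against Ctrl and 0.39 in dKO against KO-1, and with chromosome medians removed both of these Gusb differences were called, at 0.40 (adjusted p = 0.000163) and -0.52 (adjusted p = 9.38e-06).

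**Figure D2:**
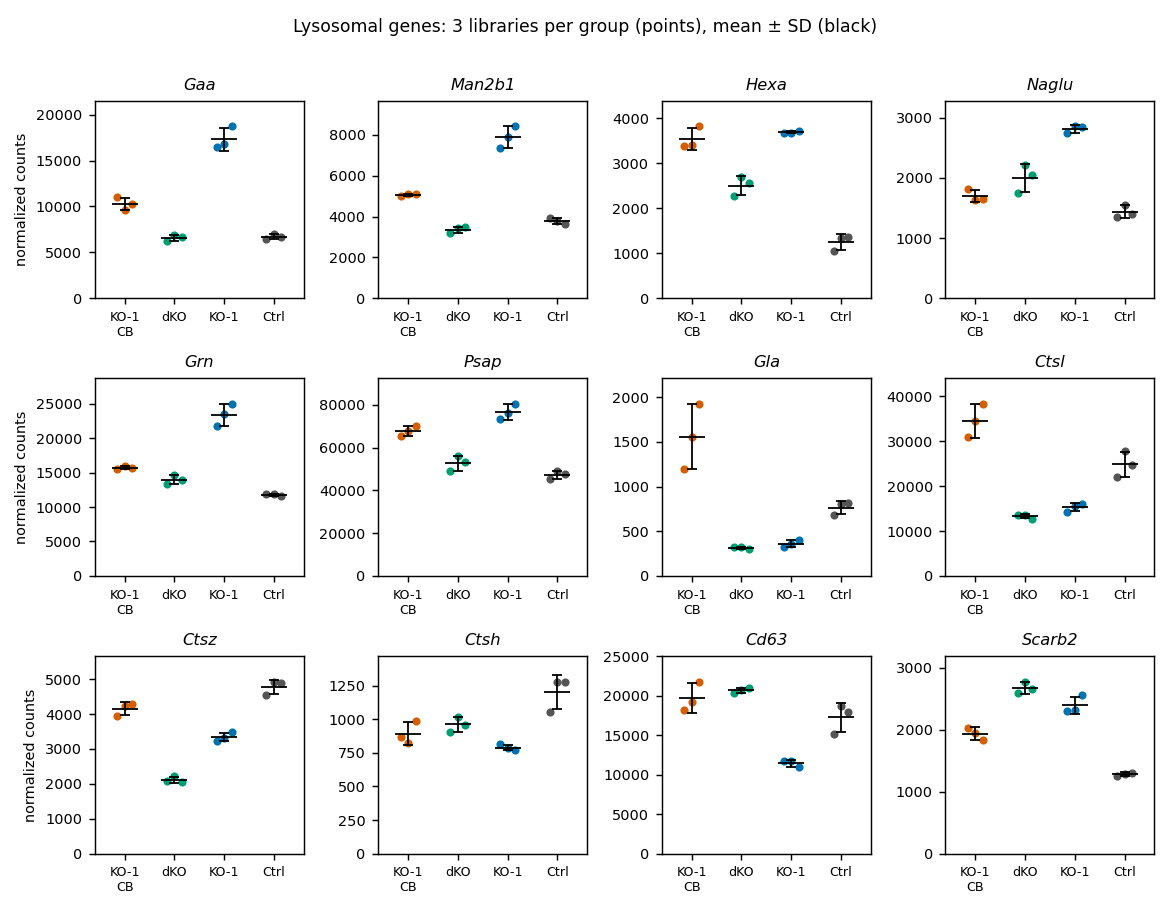
Normalized counts (y axis, from 0, one panel for each gene) of 12 lysosomal genes in every library of KO-1 CB, dKO, KO-1 and Ctrl (x axis), with lines for group means and bars for SD. Gaa, Man2b1, Naglu and Grn are highest in KO-1, and Gla and Ctsl are highest in KO-1 CB.

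The proteases, which degrade the proteins delivered to the lysosome, split by member. Ctsa, a carboxypeptidase that also protects Neu1 and Glb1, had 11505, 11511 and 13029 in KO-1 CB, 8060.4, 9253 and 9044 in dKO, 13626, 14004 and 14324 in KO-1, and 8174, 8565 and 8887 in Ctrl. KO-1 was highest, KO-1 CB next, and dKO and Ctrl overlapped. Ctsa had a log2 fold change of 0.71 ± 0.06 in KO-1 against Ctrl (adjusted p = 1.78e-09). Relative to KO-1, Ctsa had log2 fold changes of -0.67 ± 0.06 in dKO (adjusted p = 4.82e-09) and -0.22 ± 0.06 in KO-1 CB (adjusted p = 0.00368). The exons of Ctsa share 495 of 4715 bases with those of Pltp, which averaged 194 against 10832 for Ctsa over all libraries. Tpp1, a tripeptidyl peptidase, had 6681, 7097 and 7563 in KO-1 CB, 4897, 4948 and 4937 in dKO, 7487, 7828 and 8211 in KO-1, and 4561, 5079 and 4628 in Ctrl. KO-1 CB and KO-1 overlapped, and dKO lay within the range of Ctrl. In KO-1, Tpp1 had a log2 fold change of 0.72 ± 0.06 against Ctrl (adjusted p = 3.3e-10). Relative to KO-1, Tpp1 had log2 fold changes of -0.67 ± 0.06 in dKO (adjusted p = 1.25e-09) and -0.14 ± 0.06 in KO-1 CB (adjusted p = 0.0327). The Tpp1 call in KO-1 CB was lost in a fit of KO-1 CB and KO-1 alone, at -0.14 (adjusted p = 0.0629), with no filter, at -0.14 (adjusted p = 0.0512), and with chromosome medians removed, at -0.10 (adjusted p = 0.127). Without KO-1 CB replicate 1 or 2 or KO-1 replicate 2 or 3, at -0.14 to -0.10 (adjusted p = 0.0659 to 0.163), it was lost as well.

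Ctsl, a cysteine cathepsin that acts early in protein breakdown (chromosome 13, 64361890 to 64370772), had 30886, 34425 and 38289 in KO-1 CB, 13595, 13623 and 12791 in dKO, 14257, 15593 and 15986 in KO-1, and 22144, 27723 and 24779 in Ctrl. KO-1 CB lay above all other groups, Ctrl was next, and KO-1 and dKO were lowest. Ctsl had a log2 fold change of -0.70 ± 0.08 in KO-1 against Ctrl (adjusted p = 1.19e-07). Relative to KO-1, Ctsl had log2 fold changes of -0.20 ± 0.08 in dKO (adjusted p = 0.0384) and 1.17 ± 0.08 in KO-1 CB (adjusted p = 5.61e-11). The small dKO difference was not called with total count scaling, at -0.08 (adjusted p = 0.326), or quantile normalization, at -0.08 (adjusted p = 0.327), and the call was lost without dKO replicate 1, 2 or 3 or KO-1 replicate 2 or 3, at -0.21 to -0.16 (adjusted p = 0.0559 to 0.133). Ctsz, a carboxypeptidase of the cathepsin family, had 3933, 4240.4 and 4286 in KO-1 CB, 2075, 2219.8 and 2046 in dKO, 3233, 3313 and 3483 in KO-1, and 4552, 4923 and 4879 in Ctrl, and no 2 groups overlapped. In KO-1, Ctsz had a log2 fold change of -0.52 ± 0.05 against Ctrl (adjusted p = 2.84e-08). Relative to KO-1, Ctsz had log2 fold changes of -0.66 ± 0.05 in dKO (adjusted p = 7.75e-10) and 0.31 ± 0.05 in KO-1 CB (adjusted p = 3.22e-05). Ctsd had 31998, 34968 and 38222 in KO-1 CB, 16976, 19821 and 17766 in dKO, 22651, 23615 and 24628 in KO-1, and 24302, 27176 and 28558 in Ctrl, highest in KO-1 CB and lowest in dKO, with KO-1 and Ctrl overlapping. Ctsd had a log2 fold change of -0.17 ± 0.08 in KO-1 against Ctrl (adjusted p = 0.0506, not called). Relative to KO-1, Ctsd had log2 fold changes of -0.38 ± 0.08 in dKO (adjusted p = 0.000176) and 0.57 ± 0.08 in KO-1 CB (adjusted p = 1.43e-06). The KO-1 difference was called without KO-1 CB replicate 1 or 3, dKO replicate 2, KO-1 replicate 3 or Ctrl replicate 1, at -0.24 to -0.17 (adjusted p = 0.013 to 0.0445). The KO-1 difference of Ctsd passed the threshold with edgeR, at -0.18 (adjusted p = 0.0393), and with DESeq2, at -0.17 (adjusted p = 0.0282). It also passed with chromosome medians removed, at -0.24 (adjusted p = 0.00755). It did not pass with quantile normalization, at -0.08 (adjusted p = 0.287), or total count scaling, at -0.14 (adjusted p = 0.065).

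Ctsb, a cysteine cathepsin with both endopeptidase and dipeptidase activity, averaged 9867 ± 660.3 in KO-1 CB, 7486 ± 527 in dKO, 7371 ± 373 in KO-1 and 7059 ± 303 in Ctrl (SD, n = 3 each) and rose in KO-1 CB alone of the 3 comparisons. In KO-1, Ctsb had a log2 fold change of 0.06 ± 0.06 against Ctrl (adjusted p = 0.384, not called). Relative to KO-1, Ctsb had log2 fold changes of 0.02 ± 0.06 in dKO (adjusted p = 0.781, not called) and 0.42 ± 0.06 in KO-1 CB (adjusted p = 4.79e-06). With quantile normalization Ctsb was also called higher in KO-1 against Ctrl, at 0.19 (adjusted p = 0.0056). With total count scaling it was also called higher in dKO against KO-1, at 0.14 (adjusted p = 0.0399). The exons of Ctsb share 774 of 6051 bases with those of Fdft1, at a mean of 3673 against 7946 for Ctsb. Ctsh, an aminopeptidase of the cathepsin family, averaged 894 ± 85.3 in KO-1 CB, 961 ± 56.5 in dKO, 789 ± 20.9 in KO-1 and 1204 ± 128 in Ctrl. Ctsh had a log2 fold change of -0.60 ± 0.08 in KO-1 against Ctrl (adjusted p = 7.62e-07). Relative to KO-1, Ctsh had log2 fold changes of 0.28 ± 0.08 in dKO (adjusted p = 0.00354) and 0.17 ± 0.08 in KO-1 CB (adjusted p = 0.0577, not called). The KO-1 CB difference of Ctsh was called without KO-1 CB replicate 2 or Ctrl replicate 1, at 0.17 to 0.23 (adjusted p = 0.0263 to 0.0334).

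Of the lipid enzymes, Lipa, the acid lipase that frees cholesterol and fatty acids from lipoprotein lipids, averaged 1696 ± 99.4 in KO-1 CB, 2798 ± 81.2 in dKO, 2806 ± 172 in KO-1 and 1937 ± 65.9 in Ctrl (SD, n = 3 each). In KO-1, Lipa had a log2 fold change of 0.53 ± 0.06 against Ctrl (adjusted p = 4.44e-08). Relative to KO-1, Lipa had log2 fold changes of 0.00 ± 0.06 in dKO (adjusted p = 0.971, not called) and -0.73 ± 0.06 in KO-1 CB (adjusted p = 5.35e-10), and dKO and KO-1 overlapped. Asah1, acid ceramidase, averaged 9145 ± 277 in KO-1 CB, 9786 ± 41.8 in dKO, 11289 ± 447 in KO-1 and 10651 ± 1029.9 in Ctrl. Asah1 had a log2 fold change of 0.09 ± 0.06 in KO-1 against Ctrl (adjusted p = 0.2, not called). Relative to KO-1, Asah1 had log2 fold changes of -0.21 ± 0.06 in dKO (adjusted p = 0.00494) and -0.30 ± 0.06 in KO-1 CB (adjusted p = 0.00015), and the dKO call was lost with total count scaling, at -0.09 (adjusted p = 0.164). Asah1 was called higher in KO-1 against Ctrl without Ctrl replicate 3, at 0.17 (adjusted p = 0.0164). The span of Asah1 overlaps that of Frg1, but their exons share 0 bases.

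Both precursor proteins rose in KO-1 and fell in dKO and in KO-1 CB against KO-1. Psap had 65612, 67791 and 70400.4 in KO-1 CB, 49073, 56009 and 53417 in dKO, 73374, 76441 and 80432 in KO-1, and 45201, 48892 and 47700.4 in Ctrl. KO-1 was highest, KO-1 CB next, and dKO lay just above Ctrl. In KO-1, Psap had a log2 fold change of 0.70 ± 0.08 against Ctrl (adjusted p = 4.81e-08). Relative to KO-1, Psap had log2 fold changes of -0.54 ± 0.08 in dKO (adjusted p = 2.15e-06) and -0.18 ± 0.08 in KO-1 CB (adjusted p = 0.047). The KO-1 CB call for Psap was lost in a fit of the 2 groups alone, at -0.18 (adjusted p = 0.121), and without KO-1 CB replicate 1 or 2, dKO replicate 2 or 3, KO-1 replicate 2 or 3, Ctrl replicate 3 or the Ctrl library headed as line 2, at -0.18 to -0.14 (adjusted p = 0.0504 to 0.133). The dKO call was lost with quantile normalization, at -0.10 (adjusted p = 0.207). Psap lies on chromosome 10, where the median gene differed by 0.40 in dKO against KO-1, and with chromosome medians removed its dKO difference was -0.97 (adjusted p = 3.88e-10). Grn, progranulin, which is cleaved into granulins in the lysosome, had 15581, 15943 and 15599 in KO-1 CB, 13326, 14635 and 13937 in dKO, 21752, 23527 and 24949 in KO-1, and 11832, 11848 and 11619.6 in Ctrl, with no overlap between any 2 groups. Grn had a log2 fold change of 0.99 ± 0.06 in KO-1 against Ctrl (adjusted p = 3.44e-12). Relative to KO-1, Grn had log2 fold changes of -0.74 ± 0.06 in dKO (adjusted p = 3.35e-10) and -0.57 ± 0.06 in KO-1 CB (adjusted p = 1.95e-08).

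The membrane proteins did not move together. Scarb2, an abundant membrane glycoprotein that also serves as a sorting receptor, had 2028, 1955 and 1830.3 in KO-1 CB, 2592, 2775 and 2665 in dKO, 2307, 2324 and 2557 in KO-1, and 1256, 1290.3 and 1309 in Ctrl. All libraries of the 3 Actr3 knockout groups lay above every Ctrl library. In KO-1, Scarb2 had a log2 fold change of 0.90 ± 0.06 against Ctrl (adjusted p = 1.1e-11). Relative to KO-1, Scarb2 had log2 fold changes of 0.16 ± 0.06 in dKO (adjusted p = 0.0157) and -0.31 ± 0.06 in KO-1 CB (adjusted p = 6.64e-05). Scarb2 lies on chromosome 5, and with chromosome medians removed its KO-1 CB difference was -0.53 (adjusted p = 6e-08) and its dKO difference turned to -0.25 (adjusted p = 0.000551). The dKO call was also lost without dKO replicate 2 or KO-1 replicate 1 or 2, at 0.13 to 0.14 (adjusted p = 0.0639 to 0.0735). Cd63, a tetraspanin of late endosomes and their vesicles (chromosome 10, 128896231 to 128912822), had 18132, 19260.3 and 21759.7 in KO-1 CB, 20337, 20754 and 20981 in dKO, 11675, 11745 and 10925 in KO-1, and 15188, 18671 and 17929 in Ctrl. KO-1 was lowest with no overlap, and KO-1 CB and Ctrl overlapped. Cd63 had a log2 fold change of -0.59 ± 0.07 in KO-1 against Ctrl (adjusted p = 4.02e-07). Relative to KO-1, Cd63 had log2 fold changes of 0.85 ± 0.07 in dKO (adjusted p = 1.72e-09) and 0.78 ± 0.07 in KO-1 CB (adjusted p = 7.61e-09), and with the chromosome 10 median of 0.40 removed the dKO difference was 0.42 (adjusted p = 3.3e-05).

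Mcoln1, a calcium channel of the lysosomal membrane, had 2786, 2748 and 2969 in KO-1 CB, 3026, 3376 and 3296 in dKO, 3876, 3748 and 3521 in KO-1, and 2300.5, 2510.2 and 2466 in Ctrl. KO-1 was highest and Ctrl lowest. In KO-1, Mcoln1 had a log2 fold change of 0.61 ± 0.06 against Ctrl (adjusted p = 4.51e-09). Relative to KO-1, Mcoln1 had log2 fold changes of -0.20 ± 0.06 in dKO (adjusted p = 0.00384) and -0.39 ± 0.06 in KO-1 CB (adjusted p = 3.86e-06), and the dKO call was lost with total count scaling, at -0.09 (adjusted p = 0.225). Lamp1 averaged 37491 ± 1269.8 in KO-1 CB, 31578 ± 1134 in dKO, 34131 ± 558 in KO-1 and 31075 ± 2314 in Ctrl (SD, n = 3 each) and was called in none of these 3 comparisons. Lamp1 had a log2 fold change of 0.14 ± 0.07 in KO-1 against Ctrl (adjusted p = 0.0685, not called). Relative to KO-1, Lamp1 had log2 fold changes of -0.11 ± 0.07 in dKO (adjusted p = 0.14, not called) and 0.14 ± 0.07 in KO-1 CB (adjusted p = 0.0785, not called). Lamp1 was called higher in KO-1 without the Ctrl library headed as line 2, at 0.18 (adjusted p = 0.0454). DESeq2 called it higher in KO-1, at 0.14 (adjusted p = 0.0223), and in KO-1 CB, at 0.14 (adjusted p = 0.0216). Its KO-1 difference was also called with total count scaling, at 0.17 (adjusted p = 0.0178), and with quantile normalization, at 0.17 (adjusted p = 0.0338). Under these scalings its KO-1 CB difference was not called, at 0.0016 (adjusted p = 0.984) with total counts and 0.013 (adjusted p = 0.879) with quantiles. Lamp2, the partner of Lamp1 that also serves in autophagy, averaged 11601 ± 171 in KO-1 CB, 9255 ± 14.3 in dKO, 10463 ± 319.5 in KO-1 and 10587 ± 1017 in Ctrl. In KO-1, Lamp2 had a log2 fold change of -0.01 ± 0.06 against Ctrl (adjusted p = 0.855, not called). Relative to KO-1, Lamp2 had log2 fold changes of -0.18 ± 0.06 in dKO (adjusted p = 0.0127) and 0.15 ± 0.06 in KO-1 CB (adjusted p = 0.0321). The KO-1 CB call for Lamp2 was lost without KO-1 CB replicate 1 or 2 or KO-1 replicate 1 or 2, at 0.13 to 0.16 (adjusted p = 0.0561 to 0.104). The KO-1 CB difference turned to -0.046 (adjusted p = 0.5) with quantile normalization, and the dKO call was lost with total count scaling, at -0.06 (adjusted p = 0.357).

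Promoter sequence was examined for the E-box CACGTG, which reads the same on both strands, in the window from 250 bases before to 50 bases after each RefSeq start (GRCm38.p6). A window was given for 32 of the 39 genes, with 36 windows in all. CACGTG was present for 13 of 32 genes (40.6%), 9 of 21 lysosomal genes (42.9%) and 4 of 11 pump genes (36.4%), and for 11.6% of the 10545 tested genes with a window. The longer form TCACGTGA, which contains it, was present for 7 of 32 genes (21.9%) and for 2.16% of the tested genes. Stretches of 4 of these promoters are shown, from the genes with TCACGTGA before the start and the smallest adjusted p in KO-1 against Ctrl. In that comparison Ctsa and Mcoln1 were called higher and Gla and Atp6v1a lower. The Atp6v1a difference of -0.14 was 0.0029 (adjusted p = 0.963) with quantile normalization. Each stretch is read 5′ to 3′ on the strand of the gene, with CACGTG in capitals.
Ctsa chr2:164833720-164833772 (+ strand): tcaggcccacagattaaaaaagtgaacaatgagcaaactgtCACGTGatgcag
Mcoln1 chr8:3500433-3500518 (+ strand): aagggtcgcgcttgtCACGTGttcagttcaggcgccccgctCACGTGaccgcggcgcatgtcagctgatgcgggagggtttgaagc
Gla chrX:134601153-134601255 (- strand): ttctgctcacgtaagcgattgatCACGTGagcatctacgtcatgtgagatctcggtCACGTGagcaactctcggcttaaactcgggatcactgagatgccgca
Atp6v1a chr16:44139344-44139431 (- strand): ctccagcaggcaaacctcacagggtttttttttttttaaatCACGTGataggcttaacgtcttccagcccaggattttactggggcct
The stretch shown for Ctsa covers bases 53 to 1 before the start, that for Mcoln1 bases 86 to 1, that for Gla bases 250 to 148 and that for Atp6v1a bases 172 to 85. Gla and Mcoln1 hold CACGTG in 2 places each in the stretches shown, and the window of Ctsa holds a further TCACGTGA just after the start, outside the stretch shown. Gaa and Naglu, which rose in KO-1, held CACGTG once and TCACGTGA nowhere, and Hexa, Man2b1, Psap and Grn, which rose as well, held neither in their windows. Such a match describes the letters in a window and says nothing about binding.

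The V0 sector carries protons across the membrane. Atp6v0c, the proteolipid that forms most of the rotor ring, had 5517, 5891 and 6119 in KO-1 CB, 4212, 4360.1 and 4058 in dKO, 3302, 3456 and 3405 in KO-1, and 4307, 4631 and 4782 in Ctrl. KO-1 was lowest, KO-1 CB highest, and dKO and Ctrl overlapped. Atp6v0c had a log2 fold change of -0.43 ± 0.05 in KO-1 against Ctrl (adjusted p = 3.82e-07). Relative to KO-1, Atp6v0c had log2 fold changes of 0.31 ± 0.05 in dKO (adjusted p = 2.92e-05) and 0.79 ± 0.05 in KO-1 CB (adjusted p = 5.56e-11). A processed copy, Atp6v0c-ps2, averaged 153 over all libraries and may share reads with it. Atp6v0b, another proteolipid of the ring, had 6259, 6911 and 9267 in KO-1 CB, 4312, 4966 and 4674 in dKO, 4720.3, 4542 and 3903 in KO-1, and 3727, 4529 and 4843 in Ctrl, where the KO-1 CB libraries were highest and spread widely. In KO-1, Atp6v0b had a log2 fold change of 0.01 ± 0.11 against Ctrl (adjusted p = 0.932, not called). Relative to KO-1, Atp6v0b had log2 fold changes of 0.09 ± 0.11 in dKO (adjusted p = 0.504, not called) and 0.75 ± 0.11 in KO-1 CB (adjusted p = 3.68e-06).

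Atp6v0e, a small subunit at the edge of V0, had 1803, 1906 and 1777 in KO-1 CB, 2501, 2722 and 2335 in dKO, 1412, 1469 and 1384 in KO-1, and 2015, 2390.2 and 2708 in Ctrl. KO-1 was lowest, and dKO and Ctrl overlapped at the top. Atp6v0e had a log2 fold change of -0.73 ± 0.08 in KO-1 against Ctrl (adjusted p = 4.74e-08). Relative to KO-1, Atp6v0e had log2 fold changes of 0.82 ± 0.08 in dKO (adjusted p = 8.57e-09) and 0.36 ± 0.08 in KO-1 CB (adjusted p = 0.000391). Atp6v0a1, which lines the path of protons beside the ring, had 8448, 8099 and 8061 in KO-1 CB, 4704, 5020.4 and 4784 in dKO, 7030.3, 7580.2 and 8248 in KO-1, and 4858, 4918 and 4688 in Ctrl. KO-1 CB and KO-1 overlapped at the top, and dKO and Ctrl overlapped below them. In KO-1, Atp6v0a1 had a log2 fold change of 0.66 ± 0.06 against Ctrl (adjusted p = 1.17e-09). Relative to KO-1, Atp6v0a1 had log2 fold changes of -0.65 ± 0.06 in dKO (adjusted p = 1.49e-09) and 0.11 ± 0.06 in KO-1 CB (adjusted p = 0.0908, not called). That KO-1 CB difference was called without KO-1 replicate 3, at 0.17 (adjusted p = 0.0127). It was below 0 and not called with total count scaling, at -0.02 (adjusted p = 0.7), and quantile normalization, at -0.07 (adjusted p = 0.219). Atp6v0d1, which links the ring to the central stalk, averaged 3003 ± 153 in KO-1 CB, 2654 ± 115 in dKO, 2565 ± 85.1 in KO-1 and 2143 ± 56.4 in Ctrl (SD, n = 3 each). Atp6v0d1 had a log2 fold change of 0.26 ± 0.05 in KO-1 against Ctrl (adjusted p = 0.000205). Relative to KO-1, Atp6v0d1 had log2 fold changes of 0.05 ± 0.05 in dKO (adjusted p = 0.435, not called) and 0.23 ± 0.05 in KO-1 CB (adjusted p = 0.000864), and the KO-1 CB call was lost with total count scaling, at 0.09 (adjusted p = 0.124), and quantile normalization, at 0.09 (adjusted p = 0.136).

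The V1 sector hydrolyses ATP. Its catalytic subunit Atp6v1a had 6035, 5940.3 and 5528 in KO-1 CB, 3878, 3831 and 4115 in dKO, 4949, 5207 and 5348 in KO-1, and 5659, 5703 and 5712 in Ctrl. Ctrl and KO-1 CB overlapped, KO-1 lay below both, and dKO was lowest. In KO-1, Atp6v1a had a log2 fold change of -0.14 ± 0.05 against Ctrl (adjusted p = 0.0192). Relative to KO-1, Atp6v1a had log2 fold changes of -0.39 ± 0.05 in dKO (adjusted p = 8.15e-07) and 0.17 ± 0.05 in KO-1 CB (adjusted p = 0.00503). Its call in KO-1 against Ctrl was lost without KO-1 replicate 1, at -0.11 (adjusted p = 0.0958). These differences depended on scaling: with quantile normalization they were 0.0029 (adjusted p = 0.963) in KO-1 against Ctrl and -0.038 (adjusted p = 0.535) in KO-1 CB against KO-1. Atp6v1a lies on chromosome 16, where the median gene differed by -0.41 in dKO against KO-1, and with chromosome medians removed the dKO difference was 0.033 (adjusted p = 0.589). The regulatory subunit Atp6v1b2 averaged 3315 ± 167 in KO-1 CB, 2334 ± 69.7 in dKO, 2148 ± 72.9 in KO-1 and 2249.7 ± 53.4 in Ctrl (SD, n = 3 each). Atp6v1b2 had a log2 fold change of -0.07 ± 0.05 in KO-1 against Ctrl (adjusted p = 0.262, not called). Relative to KO-1, Atp6v1b2 had log2 fold changes of 0.12 ± 0.05 in dKO (adjusted p = 0.0501, not called) and 0.62 ± 0.05 in KO-1 CB (adjusted p = 1.26e-09). In dKO, Atp6v1b2 was called higher without KO-1 CB replicate 1 or 3, dKO replicate 1 or KO-1 replicate 2, at 0.12 to 0.15 (adjusted p = 0.0344 to 0.0491). The dKO difference lay at the threshold and was called under 10 alternatives other than leaving out a library, with edgeR at 0.14 (adjusted p = 0.0276).

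The lowest log2 fold changes of the V1 subunits in KO-1 against Ctrl were those of 2 stalk subunits. Atp6v1f, on the central stalk (chromosome 6, 29467783 to 29470509), had 1691, 1850.5 and 1791 in KO-1 CB, 2059.7, 2248 and 2217 in dKO, 1381, 1395 and 1328 in KO-1, and 2645, 2822 and 2812 in Ctrl. No 2 groups overlapped, with Ctrl highest and KO-1 lowest. In KO-1, Atp6v1f had a log2 fold change of -1.01 ± 0.05 against Ctrl (adjusted p = 1.2e-12). Relative to KO-1, Atp6v1f had log2 fold changes of 0.67 ± 0.05 in dKO (adjusted p = 8.24e-10) and 0.38 ± 0.05 in KO-1 CB (adjusted p = 3.71e-06). Atp6v1e1, on the peripheral stalk (chromosome 6, 120795244 to 120822698), had 1752, 1960.3 and 1891 in KO-1 CB, 2080.2, 2350.2 and 2109.7 in dKO, 1561, 1524 and 1531 in KO-1, and 2428, 2689 and 2671 in Ctrl, in the same order of groups and with no overlap. Atp6v1e1 had a log2 fold change of -0.75 ± 0.06 in KO-1 against Ctrl (adjusted p = 4.83e-10). Relative to KO-1, Atp6v1e1 had log2 fold changes of 0.50 ± 0.06 in dKO (adjusted p = 2.59e-07) and 0.28 ± 0.06 in KO-1 CB (adjusted p = 0.000387). Both genes lie on chromosome 6, where the median gene differed by -0.42 in KO-1 against Ctrl and by 0.03 in dKO against KO-1. With chromosome medians removed the KO-1 differences were -0.61 (adjusted p = 5.15e-09) for Atp6v1f and -0.35 (adjusted p = 4.12e-05) for Atp6v1e1.

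Atp6v1d, a central stalk subunit, had 3822, 4326 and 4845 in KO-1 CB, 3162, 3092 and 3108 in dKO, 2305, 2642 and 2407 in KO-1, and 2972, 3069 and 2971 in Ctrl. KO-1 CB was highest and KO-1 lowest. In KO-1, Atp6v1d had a log2 fold change of -0.30 ± 0.07 against Ctrl (adjusted p = 0.000564). Relative to KO-1, Atp6v1d had log2 fold changes of 0.35 ± 0.07 in dKO (adjusted p = 0.000106) and 0.82 ± 0.07 in KO-1 CB (adjusted p = 1.04e-09). Atp6v1g1, the other subunit of the peripheral stalk pair with Atp6v1e1, averaged 965 ± 26.3 in KO-1 CB, 1131 ± 77.7 in dKO, 719.6 ± 9.05 in KO-1 and 973 ± 45.3 in Ctrl (SD, n = 3 each). Atp6v1g1 had a log2 fold change of -0.43 ± 0.06 in KO-1 against Ctrl (adjusted p = 3.36e-06). Relative to KO-1, Atp6v1g1 had log2 fold changes of 0.65 ± 0.06 in dKO (adjusted p = 1.14e-08) and 0.42 ± 0.06 in KO-1 CB (adjusted p = 5.58e-06). Atp6v1c1, which joins V1 to V0 and lets go when the pump comes apart, averaged 6736 ± 579 in KO-1 CB, 5686 ± 112 in dKO, 4197 ± 76.1 in KO-1 and 4294 ± 55.9 in Ctrl, highest in KO-1 CB. In KO-1, Atp6v1c1 had a log2 fold change of -0.03 ± 0.05 against Ctrl (adjusted p = 0.604, not called). Relative to KO-1, Atp6v1c1 had log2 fold changes of 0.44 ± 0.05 in dKO (adjusted p = 4.31e-07) and 0.68 ± 0.05 in KO-1 CB (adjusted p = 7.07e-10). Atp6v1h, which holds back ATP hydrolysis when V1 is free, averaged 2624 ± 58.2 in KO-1 CB, 1912 ± 53.2 in dKO, 1918 ± 43.1 in KO-1 and 1906 ± 99.8 in Ctrl. Atp6v1h had a log2 fold change of 0.01 ± 0.05 in KO-1 against Ctrl (adjusted p = 0.875, not called). Relative to KO-1, Atp6v1h had log2 fold changes of 0.00 ± 0.05 in dKO (adjusted p = 0.942, not called) and 0.45 ± 0.05 in KO-1 CB (adjusted p = 1.49e-07).

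**Figure D3:**
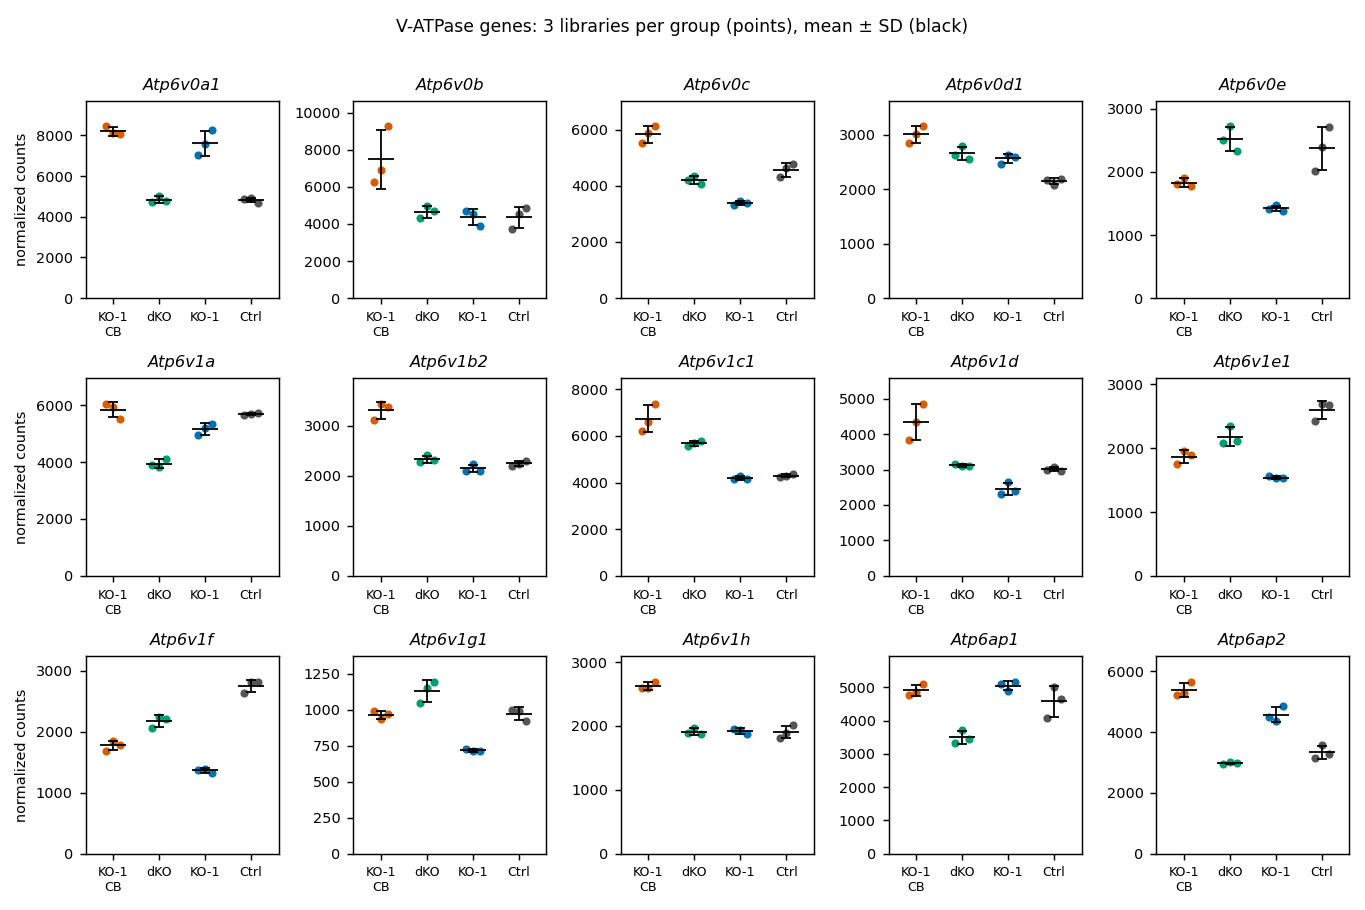
Normalized counts (y axis, from 0, one panel for each gene) of the 15 V-ATPase genes in every library of KO-1 CB, dKO, KO-1 and Ctrl (x axis), with lines for group means and bars for SD. The KO-1 CB libraries lie above the KO-1 libraries for 13 of the 15 genes, and Atp6v1e1 and Atp6v1f are highest in Ctrl.

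The accessory subunits, which help the pump to assemble and to reach its membranes, followed another order. Atp6ap2, also known as the prorenin receptor, had 5233, 5270.0 and 5653 in KO-1 CB, 2963, 3002 and 2970.3 in dKO, 4498, 4363 and 4859 in KO-1, and 3139.8, 3582 and 3273 in Ctrl. KO-1 CB was highest, KO-1 next, then Ctrl, with dKO lowest. In KO-1, Atp6ap2 had a log2 fold change of 0.46 ± 0.06 against Ctrl (adjusted p = 3.23e-07). Relative to KO-1, Atp6ap2 had log2 fold changes of -0.62 ± 0.06 in dKO (adjusted p = 4.32e-09) and 0.24 ± 0.06 in KO-1 CB (adjusted p = 0.000954), and the KO-1 CB call was lost with total count scaling, at 0.10 (adjusted p = 0.0974), and quantile normalization, at 0.03 (adjusted p = 0.605). Atp6ap1 averaged 4907 ± 166 in KO-1 CB, 3494 ± 194 in dKO, 5047 ± 141 in KO-1 and 4578 ± 463 in Ctrl (SD, n = 3 each). Atp6ap1 had a log2 fold change of 0.15 ± 0.06 in KO-1 against Ctrl (adjusted p = 0.0457). Relative to KO-1, Atp6ap1 had log2 fold changes of -0.53 ± 0.06 in dKO (adjusted p = 2.08e-07) and -0.04 ± 0.06 in KO-1 CB (adjusted p = 0.584, not called). The KO-1 CB difference was called lower with quantile normalization, at -0.25 (adjusted p = 0.00146), and total count scaling, at -0.17 (adjusted p = 0.0171). The KO-1 call for Atp6ap1 was lost in a fit of the 2 groups alone, at 0.15 (adjusted p = 0.0502), with edgeR, at 0.14 (adjusted p = 0.0563), and without KO-1 CB replicate 2, dKO replicate 3, KO-1 replicate 1 or 3, Ctrl replicate 1 or the Ctrl library headed as line 2, at 0.06 to 0.16 (adjusted p = 0.0552 to 0.34). It was larger with quantile normalization, at 0.28 (adjusted p = 0.000519), and with chromosome medians removed, at 0.32 (adjusted p = 0.000182).

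Other differences of KO-1 CB against KO-1 stayed called but moved by over 1.5 times with scaling. With total count scaling they were 0.23 (adjusted p = 0.0149) for Atp6v0e, 0.14 (adjusted p = 0.0413) for Atp6v1e1, 0.24 (adjusted p = 0.00082) for Atp6v1f, 0.18 (adjusted p = 0.00393) for Ctsz and -0.35 (adjusted p = 1.56e-05) for Ctsa. Larger negative values were also seen for Psap at -0.31 (adjusted p = 0.00021) and Tpp1 at -0.27 (adjusted p = 6.48e-05). With quantile normalization the difference was 0.22 (adjusted p = 0.00245) for Ctsb, 0.13 (adjusted p = 0.0245) for Ctsz, -0.38 (adjusted p = 1.02e-05) for Ctsa, -0.29 (adjusted p = 0.000863) for Psap, -0.31 (adjusted p = 1.63e-05) for Tpp1 and -0.48 (adjusted p = 1.54e-07) for Asah1. In dKO against KO-1, Ctsd was -0.24 (adjusted p = 0.00447) with quantile normalization, Ctsl was -0.32 (adjusted p = 0.00121) with chromosome medians removed, and Scarb2 was 0.28 (adjusted p = 0.000247) with total count scaling.

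By class and library, relative to the control mean, the median glycosidase lay at 0.34 to 0.40 in KO-1 CB, -0.18 to -0.02 in dKO, 0.64 to 0.69 in KO-1 and -0.07 to 0.04 in Ctrl on the log2 scale. The median protease lay at 0.32 to 0.57 in KO-1 CB, -0.41 to -0.24 in dKO, -0.23 to -0.11 in KO-1 and -0.07 to 0.06 in Ctrl. For the V1 subunits the median was 0.22 to 0.25 in KO-1 CB, 0.00 to 0.05 in dKO, -0.29 to -0.16 in KO-1 and -0.02 to 0.02 in Ctrl. The glycosidase and V1 medians thus stood on opposite sides of the control mean in KO-1 and on the same side in KO-1 CB. The classes were formed by function, and these medians are a description with no test.

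**Figure D4:**
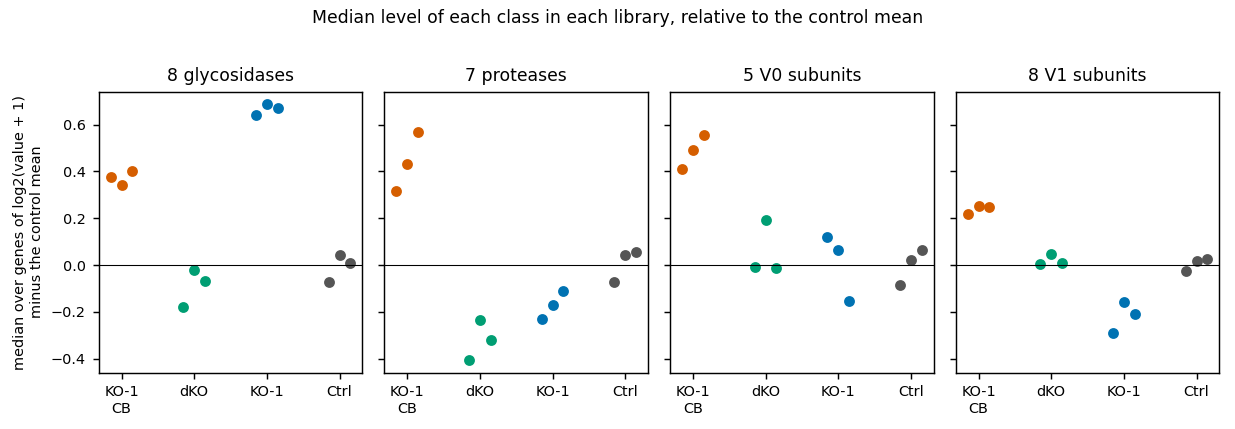
Median over the genes of a class of log2(value + 1) minus the control mean (y axis) in each library of KO-1 CB, dKO, KO-1 and Ctrl (x axis), for the 8 glycosidases, 7 proteases, 5 V0 subunits and 8 V1 subunits (panels). Glycosidases reach 0.64 to 0.69 in KO-1, where the V1 subunits lie at -0.29 to -0.16.

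KO-1 CB and dKO were each also set against the control line. In KO-1 CB against Ctrl, 18 of the 24 lysosomal genes rose and 6 fell (median 0.34), and 9 of the 15 pump genes rose and 3 fell (median 0.46), with 33.0% of all tested genes called higher, 32.0% lower and 65.1% in either direction. In dKO against Ctrl, 7 of the 24 lysosomal genes rose and 9 fell (median 0.03), and 3 of the 15 pump genes rose and 5 fell (median 0.01), with 32.0% of all tested genes called higher, 35.1% lower and 67.1% in either direction. Called at a change of at least 1.5-fold in KO-1 CB against Ctrl were 4 lysosomal and 4 pump genes higher and 0 and 1 lower, where 13.3% and 11.1% of all tested genes were. The KO-1 CB libraries all lay above the Ctrl libraries for 16 lysosomal and 9 pump genes and below them for 6 and 3, as they did for 34.6% and 33.2% of all tested genes. Called at a change of at least 1.5-fold in dKO against Ctrl were 2 lysosomal and 0 pump genes higher and 3 and 0 lower, where 11.7% and 15.4% of all tested genes were. The dKO libraries all lay above the Ctrl libraries for 8 lysosomal and 4 pump genes and below them for 9 and 5, as they did for 34.9% and 37.1% of all tested genes. The dKO split depended on scaling: with total count scaling 13 lysosomal genes rose and 5 fell and 8 pump genes rose and 3 fell, and with quantile normalization 13 rose and 6 fell and 6 rose and 4 fell. Of all calls in dKO against Ctrl, 62.2% were higher with total count scaling and 54.9% with quantile normalization, against 47.7% with the deposited scaling. Without the Ctrl library headed as line 2, of the lysosomal genes 17 rose and 6 fell in KO-1 CB and 7 rose and 8 fell in dKO, and of the pump genes 9 rose and 3 fell in KO-1 CB and 4 rose and 5 fell in dKO. Over all tested genes, 59.9% were then called in either direction in KO-1 CB and 63.6% in dKO. Both comparisons share the Ctrl libraries.

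Hexa stayed above Ctrl in both, with 1.51 ± 0.08 in KO-1 CB against Ctrl (adjusted p = 1.43e-12) and 1.01 ± 0.08 in dKO against Ctrl (adjusted p = 4.61e-10), as did Scarb2 with 0.59 ± 0.06 in KO-1 CB against Ctrl (adjusted p = 1.02e-08) and 1.06 ± 0.06 in dKO against Ctrl (adjusted p = 7.03e-13). Gaa was 0.62 ± 0.06 in KO-1 CB against Ctrl (adjusted p = 2.48e-08) and, not called, -0.03 ± 0.06 in dKO against Ctrl (adjusted p = 0.648). Gla differed in direction, at 1.01 ± 0.12 in KO-1 CB against Ctrl (adjusted p = 2.29e-07) and -1.28 ± 0.12 in dKO against Ctrl (adjusted p = 5.01e-09). Ctsl did so too, at 0.47 ± 0.08 in KO-1 CB against Ctrl (adjusted p = 2.85e-05) and -0.89 ± 0.08 in dKO against Ctrl (adjusted p = 3.23e-09). Ctsz was -0.20 ± 0.05 in KO-1 CB against Ctrl (adjusted p = 0.00237) and -1.18 ± 0.05 in dKO against Ctrl (adjusted p = 6.19e-14). Of the pump genes, Atp6v0a1 was 0.77 ± 0.06 in KO-1 CB against Ctrl (adjusted p = 1.73e-10) and, not called, 0.00 ± 0.06 in dKO against Ctrl (adjusted p = 0.955), and Atp6v1f was -0.63 ± 0.05 in KO-1 CB against Ctrl (adjusted p = 2.38e-09) and -0.34 ± 0.05 in dKO against Ctrl (adjusted p = 1.13e-05). The median gene of chromosome 6, where Atp6v1f lies, differed by -0.41 in KO-1 CB against Ctrl and by -0.39 in dKO against Ctrl. With chromosome medians removed the Atp6v1f value became -0.18 (adjusted p = 0.00949) in KO-1 CB and 0.030 (adjusted p = 0.655) in dKO.

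Several V-ATPase subunits have further isoforms that are tissue-restricted, and 11 of these were looked up beside the 15 pump genes. Of the 4 isoforms of subunit a, per kilobase of exon, Tcirg1 (isoform a3 of osteoclasts and lysosomes) stood at 951 ± 85.0 in KO-1 CB, 1190.0 ± 51.2 in dKO, 1716 ± 153 in KO-1 and 854 ± 10.2 in Ctrl (SD, n = 3 each), and Atp6v0a1 at 1251 ± 32.5 in KO-1 CB, 738 ± 25.1 in dKO, 1162 ± 93.0 in KO-1 and 735 ± 18.2 in Ctrl. Tcirg1 was thus above Atp6v0a1 in dKO, KO-1 and Ctrl and below it in KO-1 CB. Atp6v0a2, found on the Golgi and endosomes, stood at 311 ± 14.3 in KO-1 CB, 448 ± 11.7 in dKO, 375 ± 24.6 in KO-1 and 363 ± 18.6 in Ctrl, and Atp6v0a4, the isoform of intercalated cells, at 24.2 ± 1.81 in KO-1 CB, 47.0 ± 6.09 in dKO, 33.6 ± 5.56 in KO-1 and 54.2 ± 2.83 in Ctrl. In normalized counts Tcirg1 had 4304, 4028 and 4800.2 in KO-1 CB, 5205, 5615 and 5612 in dKO, 8051, 8515 and 7133 in KO-1, and 3911, 3984 and 3897 in Ctrl, with KO-1 highest and Ctrl lowest. In KO-1, Tcirg1 had a log2 fold change of 1.00 ± 0.07 against Ctrl (adjusted p = 2.17e-11). Relative to KO-1, Tcirg1 had log2 fold changes of -0.53 ± 0.07 in dKO (adjusted p = 4.47e-07) and -0.85 ± 0.07 in KO-1 CB (adjusted p = 3.63e-10). Atp6v0e2, a second isoform of subunit e, averaged 338 ± 28.8 in KO-1 CB, 522 ± 12.5 in dKO, 435 ± 24.2 in KO-1 and 878 ± 34.7 in Ctrl, with -1.01 ± 0.08 in KO-1 against Ctrl (adjusted p = 2.22e-10) and -0.36 ± 0.08 in KO-1 CB against KO-1 (adjusted p = 0.000295). Atp6v1b1, the kidney isoform of subunit B, did not exceed 4.51 normalized counts in any library, and Atp6v0d2 and Atp6v1g3 were at 0 in all 12. Of the 6 isoforms tested, 1 rose and 2 fell in KO-1 against Ctrl, 3 rose and 1 fell in dKO against KO-1, and none rose and 5 fell in KO-1 CB against KO-1. Over all tested genes 34.4% and 35.4% were called higher and lower in the first of these comparisons, 32.5% and 33.2% in the second and 32.7% and 32.9% in the third.

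**Figure D5:**
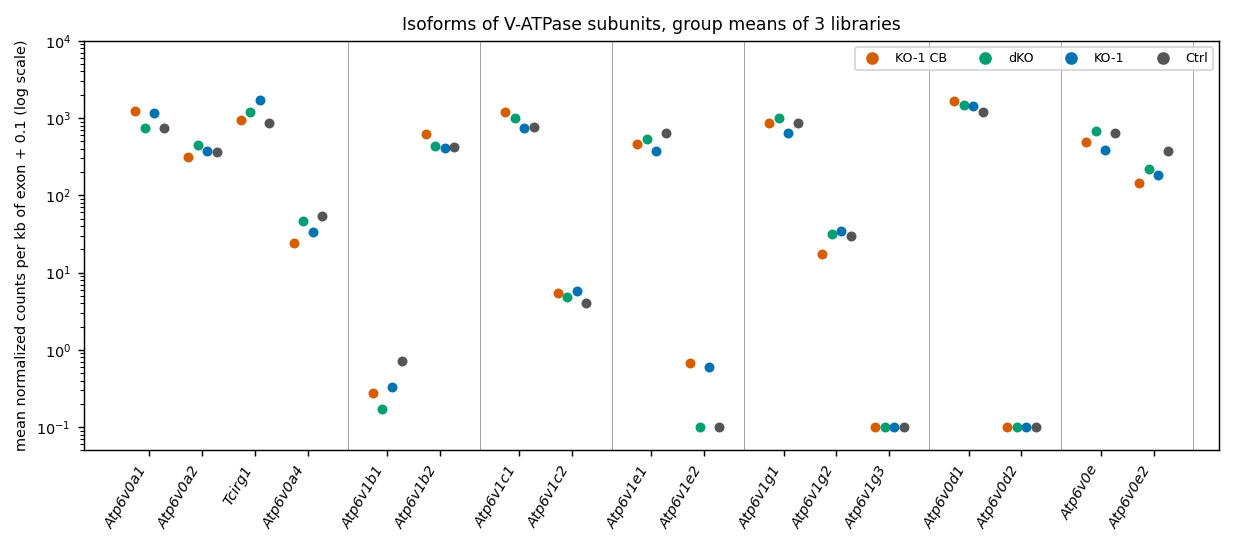
Mean normalized counts per kilobase of exon plus 0.1 (y axis, log scale) of the isoforms of V-ATPase subunits (x axis), with a point for the mean of 3 libraries of KO-1 CB, dKO, KO-1 and Ctrl. Tcirg1 is at 1716 in KO-1 and 854 in Ctrl, and Atp6v0d2 and Atp6v1g3 lie at the bottom, at 0 before the 0.1 was added.

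Lysosomal genes outside the 39 were counted from lists of known members. Of 41 symbols listed for other hydrolases and activators, 39 were tested. In KO-1 against Ctrl 29 rose and 4 fell (median 0.47), in dKO against KO-1 2 rose and 31 fell (median -0.36), and in KO-1 CB against KO-1 4 rose and 28 fell (median -0.36). Over all tested genes 34.4% and 35.4% were called higher and lower in KO-1 against Ctrl, 32.5% and 33.2% in dKO against KO-1 and 32.7% and 32.9% in KO-1 CB against KO-1. The smallest adjusted p in KO-1 against Ctrl belonged to Arsa, arylsulfatase A, at 1.33 ± 0.05 (adjusted p = 1.78e-14), Ctso, a cysteine cathepsin, at 1.81 ± 0.08 (adjusted p = 6.35e-14), and Manba, beta-mannosidase, at 1.10 ± 0.06 (adjusted p = 4.48e-13). In dKO against KO-1 Manba fell, at -1.19 ± 0.06 (adjusted p = 1.63e-13), as did Hyal1, a hyaluronidase, at -2.47 ± 0.13 (adjusted p = 5.95e-13). The cathepsin Ctsf was at 0 in the 3 dKO libraries, against 71.5, 66.3 and 59.4 normalized counts in KO-1. In KO-1 CB against KO-1 Galns, a sulfatase of keratan sulfate breakdown, fell at -1.06 ± 0.06 (adjusted p = 2.63e-12), Ppt2, a thioesterase, at -0.69 ± 0.05 (adjusted p = 3.07e-10), and Man2b2, a mannosidase, at -0.63 ± 0.05 (adjusted p = 6.95e-10).

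Of 31 other membrane and transport proteins, 29 were tested. The counts of genes that rose and fell were 19 and 5 in KO-1 against Ctrl, 3 and 11 in dKO against KO-1, and 5 and 15 in KO-1 CB against KO-1. The medians were 0.26, -0.10 and -0.22, and the shares over all tested genes were 34.4% and 35.4%, 32.5% and 33.2% and 32.7% and 32.9%. In dKO 14 of 29 were called in either direction, a smaller share than the 65.7% of all tested genes. In KO-1 against Ctrl Ostm1, a partner of the chloride transporter Clcn7, rose at 0.88 ± 0.05 (adjusted p = 2.86e-12) and Ctns, the cystine exporter, at 1.11 ± 0.07 (adjusted p = 9.87e-12), while Cln3 fell at -2.08 ± 0.14 (adjusted p = 2.08e-11). Npc1, which moves cholesterol out of the lysosome, fell in dKO against KO-1 at -0.94 ± 0.06 (adjusted p = 2.61e-11). The amino acid and peptide transporter Slc15a4 rose in KO-1 CB against KO-1 at 0.87 ± 0.08 (adjusted p = 1.9e-09), and the proton-conducting channel Tmem175 fell at -0.71 ± 0.06 (adjusted p = 1.61e-09).

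Of 20 genes that tag or sort hydrolases, the counts that rose and fell were 13 and 2 in KO-1 against Ctrl, 7 and 7 in dKO against KO-1, and 4 and 9 in KO-1 CB against KO-1. With medians of 0.35, -0.03 and -0.10, these counts stand beside 34.4% and 35.4%, 32.5% and 33.2% and 32.7% and 32.9% of all tested genes, and the dKO counts are near them. M6pr, the smaller mannose 6-phosphate receptor, fell in KO-1 against Ctrl at -0.72 ± 0.05 (adjusted p = 3.93e-11), and Rab7, a small GTPase of late endosomes, at -0.93 ± 0.05 (adjusted p = 1.51e-12), while the adaptor Gga2 rose at 0.80 ± 0.06 (adjusted p = 6.92e-11). Sort1, sortilin, a sorting receptor that can carry hydrolases and prosaposin, had 2602, 2468 and 2292 in KO-1 CB, 659.9, 698 and 621 in dKO, 3539, 3792 and 4251 in KO-1, and 3764, 3783 and 3773 in Ctrl. The dKO libraries were lowest by far. Sort1 had log2 fold changes of -2.54 ± 0.07 in dKO against KO-1 (adjusted p = 5.43e-18) and -0.65 ± 0.07 in KO-1 CB against KO-1 (adjusted p = 1.79e-08). Igf2r, the larger mannose 6-phosphate receptor, fell in dKO against KO-1 at -1.10 ± 0.07 (adjusted p = 3.24e-11). Rab7 rose in KO-1 CB against KO-1 at 0.65 ± 0.05 (adjusted p = 4.61e-10) and in dKO against KO-1 at 0.67 ± 0.05 (adjusted p = 2.56e-10). Of 13 assembly factors and regulators of the pump 12 were tested, and those that rose and fell numbered 6 and 3 in KO-1 against Ctrl, 5 and 5 in dKO against KO-1, and 2 and 6 in KO-1 CB against KO-1. Their medians were 0.14, -0.02 and -0.22, beside 34.4% and 35.4%, 32.5% and 33.2% and 32.7% and 32.9% of all tested genes. Rogdi, a subunit of the complex that rejoins V1 and V0, fell in KO-1 CB against KO-1 at -0.81 ± 0.07 (adjusted p = 5.06e-09), and Dmxl1 of the same complex rose at 0.59 ± 0.07 (adjusted p = 1.56e-07).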

How the data were processed

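Poly(A) RNA of 12 libraries was sequenced on an Illumina NovaSeq instrument after NEBNext Ultra II library preparation, per the labels' protocols. Builds mm10 and GRCm38, DESeq2 2.11.40.7, featureCounts 2.0.1, HISAT2 2.2.1 and fastp 0.23.2 are named per the submitters' processing notes; the sources used here give no strand setting. The deposited values are a signal per gene in which the authors' counts were divided by 1 factor for each library: 100% of values were whole multiples of 1 step within 0.01 reads, so whole reads were recovered (28902562 to 38077987 in a library). Of 27179 Entrez IDs, 25275 were named from RefSeq GRCm38.p6 and 18 from GENCODE M21. Coordinates are from RefSeq GRCm38.p6 and exon lengths and shared exon bases from GENCODE M21.

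Libraries were grouped by title. One control column is headed as replicate 1 of a control line 2, which no title carries; it was kept in the control group without a replicate number, and whether it is another line or a misnumbered replicate cannot be told apart. The spread of replicates exceeded counting noise, with 4.48 to 16.9 as the chi-square for each degree of freedom. The filter asked for values of 10 or more in 3 or more libraries, and log2(value + 1) was fitted with limma 3.58.1 (trend, 12 libraries, two-sided) in R 4.3.3; adjusted p-values are Benjamini-Hochberg over 13939 genes. The offset of 1 understates changes of low genes. The recovered reads were tested with edgeR 4.0.16, which called 9856 genes in KO-1 against Ctrl, and DESeq2 1.42.0, which called 9587, against 9724 with limma. Of these steps, the limma fit alone was tested on simulated counts. The members and the lists were chosen with earlier results of these data known. All 39 members could be named, and of each other list up to 3 called genes with the smallest adjusted p in a comparison. Promoters shown are those of up to 4 members with TCACGTGA before the start and the smallest adjusted p in KO-1 against Ctrl. One gene of the list of other hydrolases is not reported here by name.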

Additional observations from a re-analysis of the deposited data

How the results depend on the processing

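Counts of called members, and each of the 39 members in each of 5 comparisons, were recomputed under 24 alternatives: quantile normalization, TMM rescaling, total count scaling (added after the data were seen), pseudocounts of 0.5 or 5, the filter dropped or raised to a mean of 50, edgeR, DESeq2, fits restricted to the 2 groups, the replicate block, chromosome medians removed, and each of the 12 libraries left out in turn. A threshold of at least 1.5-fold was applied to the counts as well. Of 4680 single-gene values, 4479 kept their side of the threshold and, where called, their direction, 103 lost and 84 gained a call, and 14 changed sign with a call in at least 1 of the fits. None of those 14 came from leaving out a library, which moved no count of members by more than 1.5 times.

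At the threshold of at least 1.5-fold, 10.6% to 15.1% of all tested genes were called higher and 11.1% to 15.4% lower, depending on the comparison. With at least 1.5-fold, 1 pump gene rose and 3 fell in KO-1 against Ctrl. In dKO against KO-1, 1 lysosomal gene rose and 6 fell, and 3 pump genes rose and 2 fell. In KO-1 CB against KO-1, 3 lysosomal genes rose and 6 fell, and 5 pump genes rose. In dKO against Ctrl, 2 lysosomal genes rose and 3 fell, and 0 pump genes rose and 0 fell. In KO-1 CB against Ctrl, 4 lysosomal genes rose and 0 fell, and 4 pump genes rose and 1 fell. In dKO against Ctrl, 13 lysosomal genes rose with quantile normalization and 13 with total count scaling, where 5 fell, and 6 and 8 pump genes rose under these 2 scalings. There 3 pump genes fell with total count scaling and 3 with chromosome medians removed. In KO-1 CB against KO-1, 1 pump gene fell with quantile normalization and 1 with total count scaling. Total count scaling moved the median of all genes from that of the deposited scaling to -0.15 in KO-1 CB against KO-1, 0.13 in dKO against Ctrl and 0.10 in dKO against KO-1, and of all calls 36.2%, 62.2% and 60.8% were then higher, against 49.9%, 47.7% and 49.5%. In KO-1 CB against Ctrl 38.8% were then higher, against 50.8%.

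The changes of sign were, with quantile normalization, Lamp2 at 0.14 and Atp6v1a at 0.0029 in KO-1 against Ctrl, Lamp2 at -0.046 and Atp6v1a at -0.038 in KO-1 CB against KO-1, and Gaa at 0.14 and Lamp2 at 0.0075 in dKO against Ctrl. With chromosome medians removed they were Lamp2 at 0.16 in KO-1 against Ctrl, Scarb2 at -0.25, Atp6v1a at 0.033 and Atp6v1h at 0.22 in dKO against KO-1, and Psap at -0.22, Cd63 at -0.12, Atp6v1e1 at 0.12 and Atp6v1f at 0.030 in dKO against Ctrl. The cause of these changes was not tested. Replicate numbers did not pair the samples: deviations of same-numbered libraries correlated at -0.04 to 0.07, against -0.10 to 0.10 for other pairs. With the replicate number as a block (11 libraries), 13 lysosomal genes rose and 5 fell and 3 pump genes rose and 6 fell in KO-1 against Ctrl, and no other count moved by more than 1 gene. Over all tested genes, 65.1% were called in KO-1 against Ctrl with this block, against 69.8% without it.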
